A study of Mus musculus with 9 samples.

Results

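The Hedgehog pathway is a signal by which granulosa cells speak to the cells outside the follicle. Granulosa cells secrete the ligands desert hedgehog (Dhh) and Indian hedgehog (Ihh), which bind the receptor Patched 1 (Ptch1) on stromal and theca precursor cells. Without ligand, Ptch1 holds the membrane protein Smoothened (Smo) inactive, and with ligand Smo acts through the transcription factors Gli1, Gli2 and Gli3. Hedgehog interacting protein (Hhip) binds ligand at the cell surface, and suppressor of fused (Sufu) holds the Gli factors outside the nucleus. Gli1, Ptch1 and Hhip are also known targets of the pathway, so their transcripts are widely used as its readout, and in the mouse ovary the pathway is known for its part in forming the theca layer.

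These 9 genes were chosen by their symbols, and all 9 were found among the 52025 genes of each deposited table. The data were RNA-Seq profiles of ovaries from Kunming mice on postnatal days (PD) 14, 15 and 16, the days over which the study followed the initial formation of the follicular antrum. There were 9 libraries, 3 for each day, and the labels give age as the only difference and name no treatment. The paper describes whole ovaries, whereas the labels name ovary as the tissue and granulosa cells as the source. Values are FPKM, that is mapped fragments corrected for the length of the transcript and the depth of the library, so levels of different genes are compared per length. The depth derived from the tables was 20.4 to 28.7 M fragments per library. Each difference is a change in log2(FPKM + 1) from limma, with the p-value adjusted over all 15495 genes tested, and a change was called at an adjusted p under 0.05. The fold change on this scale is smaller than the ratio of FPKM, and this matters most for low genes.

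The libraries held the markers of more cell types than the granulosa cell. All 12 granulosa cell markers, which include Fshr and Foxl2, and all 12 oocyte markers had a mean above 1 FPKM on every day. The summed level of the theca and interstitial markers was 1882 to 2520 FPKM on PD14, 1396 to 2036 FPKM on PD15 and 1414 to 1886 FPKM on PD16, and 11 of its 12 genes passed the filter of a mean above 1 FPKM on at least 1 day. Most of this sum was Hsd3b1, a steroid dehydrogenase, with means of 1785, 1291 and 1273 FPKM on the 3 days, followed by Aldh1a1 with 199, 153 and 130.5 FPKM. No marker of any list was at 0 in all libraries. The libraries were therefore read as ovaries, in which fewer cells of a type and less RNA per cell cannot be told apart.

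All 9 Hedgehog genes passed the filter, and Ihh was the only one called between days. It rose from PD14 to PD15 by 0.65 on the log2 scale, a ratio of means of 1.60, while Dhh, the receptor, the transducer, the Gli factors and both inhibitors did not pass the adjusted test in any comparison. The Ihh call was lost in 12 of 17 alternative settings. Averaged over the 9 libraries, Ptch1 was the most abundant at 43.1 FPKM and Smo the next at 37.3 FPKM. Ihh at 22.8 FPKM and Dhh at 20.9 FPKM came after them, then Gli1 at 14.8, Sufu at 14.5, Hhip at 8.53, Gli2 at 6.55 and Gli3 at 2.42 FPKM. Most steps of this order held in all 9 libraries. The exceptions were Ihh over Dhh and Gli1 over Sufu, each in 6 of 9 libraries, and Dhh over Gli1, in 8 of 9. Among all 52025 genes, Ptch1 ranked 1225th by its mean level and Gli3 ranked 11924th.

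**Figure D1:**
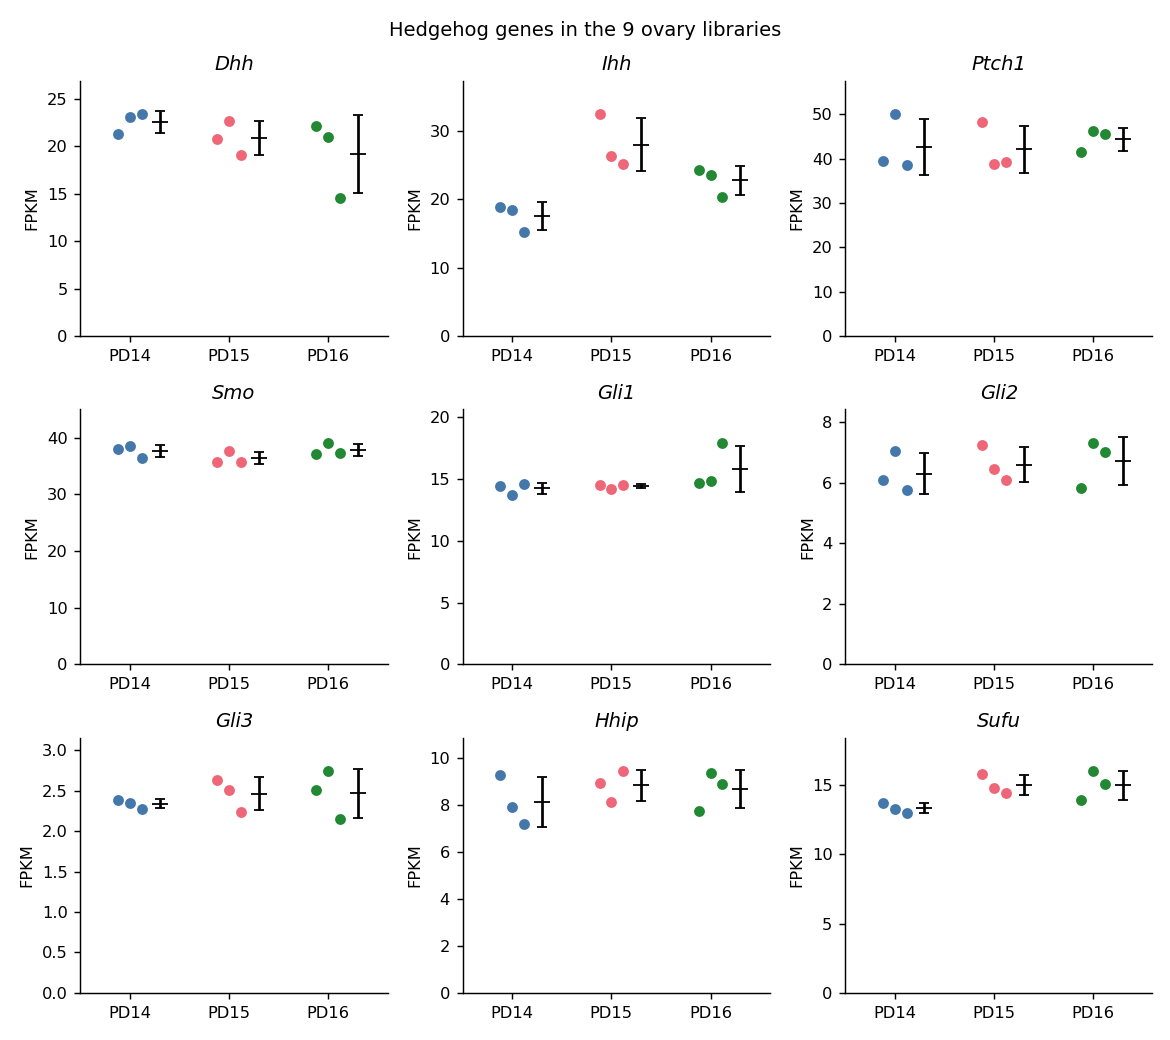
FPKM of the 9 Hedgehog genes, with 1 dot for each library, the days along the x axis, and a black dash and bar for the mean and SD of the 3 libraries of a day. Ihh is the gene whose 3 days stand apart, with PD14 at 15.2 to 19.0 FPKM, PD16 at 20.4 to 24.4 FPKM and PD15 at 25.2 to 32.5 FPKM.

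The ligands were considered first. Ihh (ENSMUSG00000006538) lies on the minus strand of GRCm38 at chr1:74945315-74951672, and Dhh (ENSMUSG00000023000) on the minus strand at chr15:98891152-98898540. Their proximal promoters are shown because they belong to the ligand that rose and to the one for which no change was called. Each runs from 250 bases before to 50 bases after the start of the gene, 5′ to 3′ on the gene's strand, from the RefSeq table of GRCm38.p6, and capitals mark GC boxes (GGGCGG, or CCGCCC on the other strand), a motif bound by Sp1-type factors. The Ihh window is chr1:74951623-74951922 and the Dhh window is chr15:98898491-98898790.
Ihh: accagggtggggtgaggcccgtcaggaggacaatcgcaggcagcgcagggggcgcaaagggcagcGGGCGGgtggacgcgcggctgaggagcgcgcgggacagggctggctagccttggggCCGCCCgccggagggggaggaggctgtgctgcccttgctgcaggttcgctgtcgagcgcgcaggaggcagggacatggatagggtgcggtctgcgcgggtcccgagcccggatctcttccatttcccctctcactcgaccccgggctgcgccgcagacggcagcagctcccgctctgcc
Dhh: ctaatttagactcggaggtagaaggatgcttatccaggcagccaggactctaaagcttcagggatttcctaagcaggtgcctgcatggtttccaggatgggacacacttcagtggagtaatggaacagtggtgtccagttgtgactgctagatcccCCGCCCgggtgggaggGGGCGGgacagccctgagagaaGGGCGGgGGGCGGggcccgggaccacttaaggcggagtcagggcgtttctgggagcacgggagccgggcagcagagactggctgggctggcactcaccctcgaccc
The Ihh window had a GC content of 72.7% and boxes that begin at -185 and -129 from the start, and the Dhh window had 61.7% and 4 boxes that begin at -94, -78, -56 and -49. The median GC content over the 32851 promoters of that table was 52.7%. At least 1 GC box was present in 7 of the 8 Hedgehog genes with a promoter in the table, the exception being Smo, and in 35.7% of all promoters. The GLI consensus GACCACCCA, or TGGGTGGTC on the other strand, was in none of the 8 windows and in 0.253% of all promoters.

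Ihh stood at 19.0, 18.4 and 15.2 FPKM in the PD14 libraries, at 32.5, 26.4 and 25.2 FPKM in the PD15 libraries and at 24.4, 23.6 and 20.4 FPKM in the PD16 libraries. No PD14 library reached the lowest library of either later day, and no PD16 library reached the lowest PD15 library. The mean was 17.5 ± 2.03 FPKM (SD, n = 3) on PD14, 28.0 ± 3.88 FPKM on PD15 and 22.8 ± 2.14 FPKM on PD16. From PD14 to PD15 the log2 change was 0.65 (SE 0.11, 95% interval 0.39 to 0.91, adjusted p = 0.0473). Of all genes tested, 0.678% were called in this comparison, and of the 9 Hedgehog genes Ihh alone was. The F test among the days called Ihh as well (adjusted p = 0.0432), where 3.03% of all genes were called.

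The Ihh call lay close to the threshold. Its direction was the same under all 17 alternative settings, with a change of 0.54 to 0.72, but the adjusted p ranged from 0.0239 to 0.142 and passed 0.05 in 12 of them. These included the removal of any 1 PD14 library (0.0730, 0.0891 and 0.142 without replicates 1, 2 and 3), of any 1 PD15 library (0.137, 0.101 and 0.0643), and of PD16 replicate 1 or 2 (0.0638 and 0.0739).

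On PD16, Ihh was again above PD14 in every library, with a change of 0.36 (95% interval 0.10 to 0.62) that did not pass the adjusted test (adjusted p = 0.103). From PD15 to PD16 the change was -0.28 (95% interval -0.54 to -0.03, adjusted p = 0.299). The level of Ihh rested on 943 to 2519 fragments per library, so that the counting error was at most 3.26%, below the mean spread of 11.8% within a day. PD15, the day with the highest Ihh, was also the day with the highest sum of oocyte markers, which was 1587 to 1721 FPKM on PD15, 1219.5 to 1516 FPKM on PD14 and 1170 to 1247 FPKM on PD16. The granulosa cell markers summed to 3283 to 4010 FPKM on PD14, 3117 to 3505 FPKM on PD15 and 3262.5 to 3835 FPKM on PD16. Most of that sum was the inhibin subunit Inha, with day means of 2296, 2008 and 2152 FPKM. Of the 12 granulosa cell markers, limma called 0 on PD15 against PD14, 5 were at an unadjusted p under 0.05 (14.7% of all genes were), and 3 were positive and 9 negative. Amh, the anti-Müllerian hormone of growing follicles, was one of the positive ones, with means of 176 FPKM on PD14 and 242 FPKM on PD15 (adjusted p = 0.0522), and the activin subunit Inhba was one of the negative ones, with means of 87.0 and 44.0 FPKM (adjusted p = 0.166). The blood and immune markers summed to 105 to 137 FPKM on PD14, 48.3 to 64.6 FPKM on PD15 and 63.0 to 116 FPKM on PD16, and Hba-a1, a hemoglobin chain, was called lower on PD15 than on PD14 by limma, as was Plin1, the only 1 of the 4 fat markers above the filter. The part of cell composition in the Ihh result was not tested.

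Dhh was measured at 21.3, 23.1 and 23.4 FPKM on PD14, at 20.7, 22.7 and 19.1 FPKM on PD15 and at 22.1, 21.0 and 14.5 FPKM on PD16. The days overlapped, and PD16 replicate 3 lay below all other libraries. The change was -0.11 from PD14 to PD15 (95% interval -0.42 to 0.19, adjusted p = 0.750) and -0.24 from PD14 to PD16 (95% interval -0.55 to 0.06, adjusted p = 0.324). Without PD16 replicate 3 the latter was -0.06. The intervals leave room for a fall of up to 0.55 on the log2 scale. Exons of Dhh share 546 bases with Rhebl1 on the same strand, a gene at a mean of 5.26 FPKM, and 1107 bases with Gm49442 on the opposite strand, and fragments from the shared bases could be assigned to either gene.

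**Figure D2:**
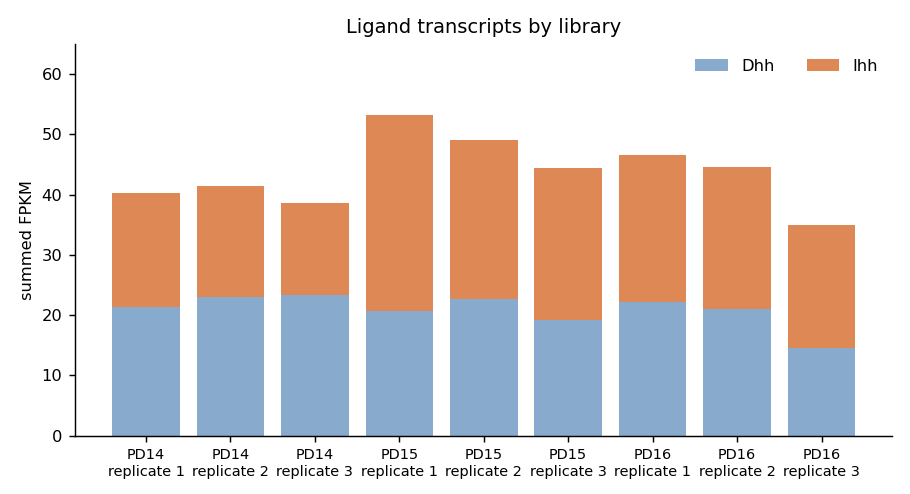
Summed FPKM of Dhh (blue) and Ihh (orange) in each of the 9 libraries, drawn as stacked bars from 0. The Ihh part is the smaller one in all 3 PD14 libraries and the larger one in all 6 later libraries.

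The makeup of the ligand pool moved with Ihh. Ihh made up 47.1%, 44.4% and 39.4% of the summed Dhh and Ihh FPKM in the PD14 libraries, 61.0%, 53.7% and 56.9% in the PD15 libraries and 52.4%, 52.9% and 58.3% in the PD16 libraries. Dhh was thus the more abundant ligand in each PD14 library and Ihh in each later one. The sum of both was 40.1 ± 1.45 FPKM (SD, n = 3) on PD14, 48.9 ± 4.42 FPKM on PD15 and 42.0 ± 6.24 FPKM on PD16, so all 3 PD15 libraries were above PD14, whereas the PD16 libraries ran from 34.9 to 46.5 FPKM across the PD14 range. These shares use the same values as the Ihh comparison and add no separate test. The remaining ligand of the family, sonic hedgehog (Shh), was at 0.166 to 0.339 FPKM and below the filter.

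The receptor Ptch1 (ENSMUSG00000021466) lies on the minus strand at chr13:63508328-63573598. Its proximal promoter, at chr13:63565686-63565985 of the same RefSeq build, is shown because Ptch1 is both the receptor and a target of the pathway, and its GC box is in capitals. The window surrounds the start that RefSeq gives, which lies inside the outermost bounds of the GENCODE gene above, since some Ptch1 transcripts begin further upstream.
Ptch1: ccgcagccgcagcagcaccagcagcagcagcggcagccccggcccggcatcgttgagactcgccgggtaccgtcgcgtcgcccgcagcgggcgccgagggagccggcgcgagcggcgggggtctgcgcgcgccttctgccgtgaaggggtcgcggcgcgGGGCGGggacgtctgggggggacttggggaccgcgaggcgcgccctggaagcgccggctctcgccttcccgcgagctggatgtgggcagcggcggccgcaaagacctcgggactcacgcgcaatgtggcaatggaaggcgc
This window had a GC content of 76.3% and a single GC box that begins at -91.

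Ptch1 was at 39.5, 50.02 and 38.6 FPKM on PD14, at 48.3, 38.8 and 39.2 FPKM on PD15 and at 41.5, 46.2 and 45.5 FPKM on PD16. The highest and the lowest library were both of PD14, and the days overlapped. The changes were -0.02 from PD14 to PD15 (95% interval -0.28 to 0.24, adjusted p = 0.960) and 0.06 from PD14 to PD16 (95% interval -0.20 to 0.32, adjusted p = 0.786). The differences in Ptch1 lay within its spread, a coefficient of variation of 11.8% within a day, and turned sign when single libraries were left out.

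Smo (ENSMUSG00000001761, plus strand, chr6:29735503-29761365), the membrane protein that Ptch1 holds in check, was the steadiest of the 9 genes. Its libraries were at 37.9, 38.6 and 36.5 FPKM on PD14, at 35.8, 37.6 and 35.8 FPKM on PD15 and at 37.1, 39.1 and 37.4 FPKM on PD16. The coefficient of variation within a day was 2.91%, against a median of 9.21% over all genes tested, and 1.87% of those genes had a lower one. The 95% intervals were -0.16 to 0.07 for PD15 and -0.11 to 0.12 for PD16, both against PD14, so a change in Smo larger than 0.16 on the log2 scale lay outside them. The ratio of Ptch1 to Smo, each in FPKM, was between 1.03 and 1.35 in the 9 libraries.

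**Figure D3:**
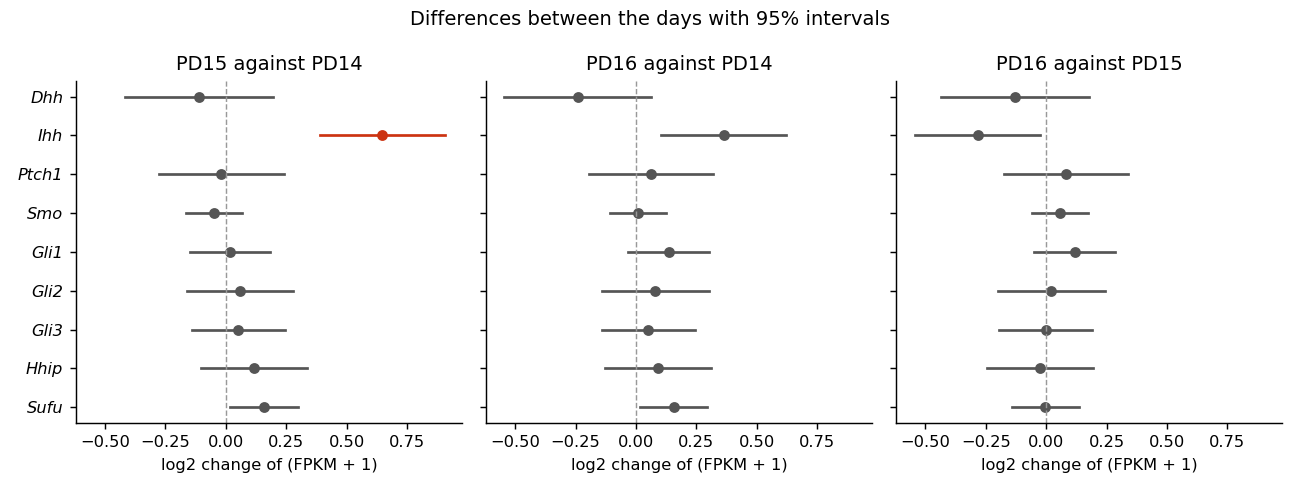
Change in log2(FPKM + 1) of each Hedgehog gene in the 3 comparisons of days (x axis, log2 units), where dots are limma estimates, lines are 95% intervals, and red marks an adjusted p under 0.05. Ihh in PD15 against PD14, at 0.65, is the single red entry, and the interval of Smo is the narrowest.

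Of the Gli factors, Gli1 (ENSMUSG00000025407, minus strand, chr10:127329882-127341974) is an activator whose transcription depends on the pathway itself. It was at 14.4, 13.7 and 14.6 FPKM on PD14, at 14.5, 14.2 and 14.5 FPKM on PD15, and at 14.7, 14.8 and 17.9 FPKM on PD16. The first 2 days overlapped, and the PD16 libraries were above all others, of which 2 only by a small margin and replicate 3 clearly. The change from PD14 to PD15 was 0.02 (95% interval -0.15 to 0.18, adjusted p = 0.938), over the same days on which Ihh was called. The difference between the change of Ihh and that of Gli1 was not tested. From PD14 to PD16 it was 0.14 (95% interval -0.03 to 0.30, adjusted p = 0.310), and 0.05 without PD16 replicate 3. That library held both the highest Gli1 and the lowest Dhh of the series.

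Gli2 (ENSMUSG00000048402, minus strand, chr1:118834132-119053619), the main activator downstream of Smo, was at 6.08, 7.07 and 5.77 FPKM on PD14, at 7.25, 6.48 and 6.09 FPKM on PD15 and at 5.84, 7.33 and 7.03 FPKM on PD16. The days overlapped, and the change from PD14 was 0.06 on PD15 (adjusted p = 0.825) and 0.08 on PD16 (adjusted p = 0.670). Gli3 (ENSMUSG00000021318, plus strand, chr13:15463235-15730026), known mainly as a repressor, was at 2.39, 2.35 and 2.28 FPKM on PD14, at 2.64, 2.52 and 2.24 FPKM on PD15 and at 2.51, 2.74 and 2.15 FPKM on PD16. It was the lowest of the 9 genes, on 445 to 644 fragments per library, with a difference of 0.05 on both later days (95% interval -0.14 to 0.24 in each case). Gli1 made up 59.3% to 66.2% of the summed FPKM of the Gli factors, Gli2 25.4% to 30.5% and Gli3 7.92% to 11.0%.

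The inhibitors act at both ends of the pathway. Hhip (ENSMUSG00000064325, minus strand, chr8:79965851-80058006), which binds ligand and is itself a target, was at 9.25, 7.88 and 7.17 FPKM on PD14, at 8.93, 8.13 and 9.42 FPKM on PD15 and at 7.75, 9.34 and 8.90 FPKM on PD16. The days overlapped, and the change from PD14 was 0.12 on PD15 (95% interval -0.10 to 0.33, adjusted p = 0.626) and 0.09 on PD16 (adjusted p = 0.625). Sufu (ENSMUSG00000025231, plus strand, chr19:46396896-46488804), which binds the Gli factors, was at 13.7, 13.3 and 13.02 FPKM on PD14, at 15.8, 14.8 and 14.5 FPKM on PD15 and at 13.9, 16.0 and 15.1 FPKM on PD16. All later libraries of Sufu were above all PD14 libraries, yet the ratio of means to PD14 was 1.13 on PD15 and 1.12 on PD16, and the change of 0.16 on each later day did not pass the adjusted test (adjusted p = 0.279 and 0.177).

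Counted over the 9 genes, limma called 1 on PD15 against PD14, where 0.678% of all genes were called, and 0 in both other comparisons, where the share was 4.25% (PD16 against PD14) and 0.729% (PD16 against PD15). At an unadjusted p under 0.05 there were 2 of 9 on PD15 against PD14, 2 of 9 on PD16 against PD14 and 1 of 9 on PD16 against PD15, beside 14.7%, 22.8% and 14.1% of all genes. Libraries of the days compared did not overlap for 2, 3 and 2 of the 9 genes, beside 20.6%, 28.5% and 19.6% of all genes. The median change of the 9 genes was 0.05, 0.08 and -0.00, and the median of all genes tested was 0.01 in each comparison. Both comparisons with PD14 share the PD14 libraries and are not independent.

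Other genes of the pathway were taken from a list of 41, of which 38 passed the filter. Limma called 0 of them on PD15 against PD14 and 0 on PD16 against PD15, with 4 and 6 at an unadjusted p under 0.05, beside 14.7% and 14.1% of all genes. On PD16 against PD14, 1 was lower (Cdon) and 1 was higher (Evc2), with 7 at an unadjusted p under 0.05 and a median change of -0.02. The shares over all genes were 4.25% and 22.8%, near those of this list. In that comparison the libraries did not overlap for 13 of the 38, beside 28.5% of all genes. The co-receptor Cdon, which binds ligand together with Ptch1, was at 14.5, 17.7 and 14.4 FPKM on PD14, at 10.9, 14.0 and 12.4 FPKM on PD15 and at 9.86, 9.73 and 10.1 FPKM on PD16. The libraries of Cdon did not overlap between any pair of days. Its change on PD16 against PD14 was -0.60 (SE 0.10, 95% interval -0.82 to -0.38, adjusted p = 0.0172), a ratio of means of 0.636, and the call ended when PD16 replicate 1 was left out (adjusted p = 0.0645) and with no filter on low values (adjusted p = 0.0513).

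Boc, a co-receptor of the same family as Cdon, was at 10.9, 12.8 and 11.1 FPKM on PD14, at 10.8, 10.4 and 10.2 FPKM on PD15 and at 9.63, 9.66 and 9.94 FPKM on PD16. Its days did not overlap either, but its change of -0.23 on PD16 against PD14 did not pass the adjusted test (adjusted p = 0.0812). The third co-receptor, Gas1, was at 12.5, 12.5 and 12.7 FPKM on PD14, at 11.0, 13.9 and 15.0 FPKM on PD15 and at 11.6, 15.3 and 14.2 FPKM on PD16, with overlap and a change of 0.11 (adjusted p = 0.619). Evc2, a protein of the cilium base that acts with Smo, was at 15.4, 18.6 and 17.4 FPKM on PD14, at 20.3, 18.9 and 18.3 FPKM on PD15 and at 24.1, 22.6 and 20.3 FPKM on PD16. Evc2 had a change of 0.36 on PD16 against PD14 (SE 0.08, adjusted p = 0.0454), a call lost in 11 of 17 alternatives, in which the adjusted p reached 0.145.

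**Figure D4:**
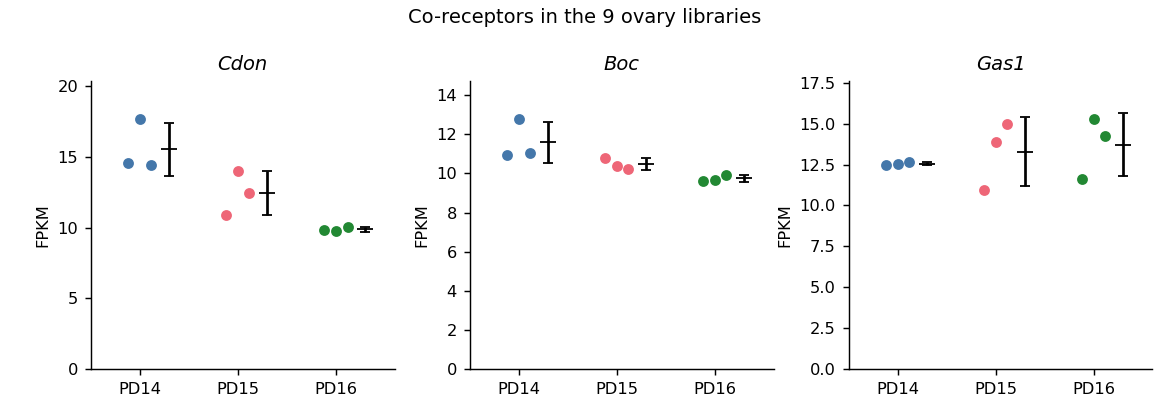
FPKM of the co-receptors Cdon, Boc and Gas1, with 1 dot for each library and a black dash and bar for the mean and SD of each day. Cdon falls without overlap from 14.4 to 17.7 FPKM on PD14 to 9.73 to 10.1 FPKM on PD16, and Gas1 overlaps between the days.

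**Figure D5:**
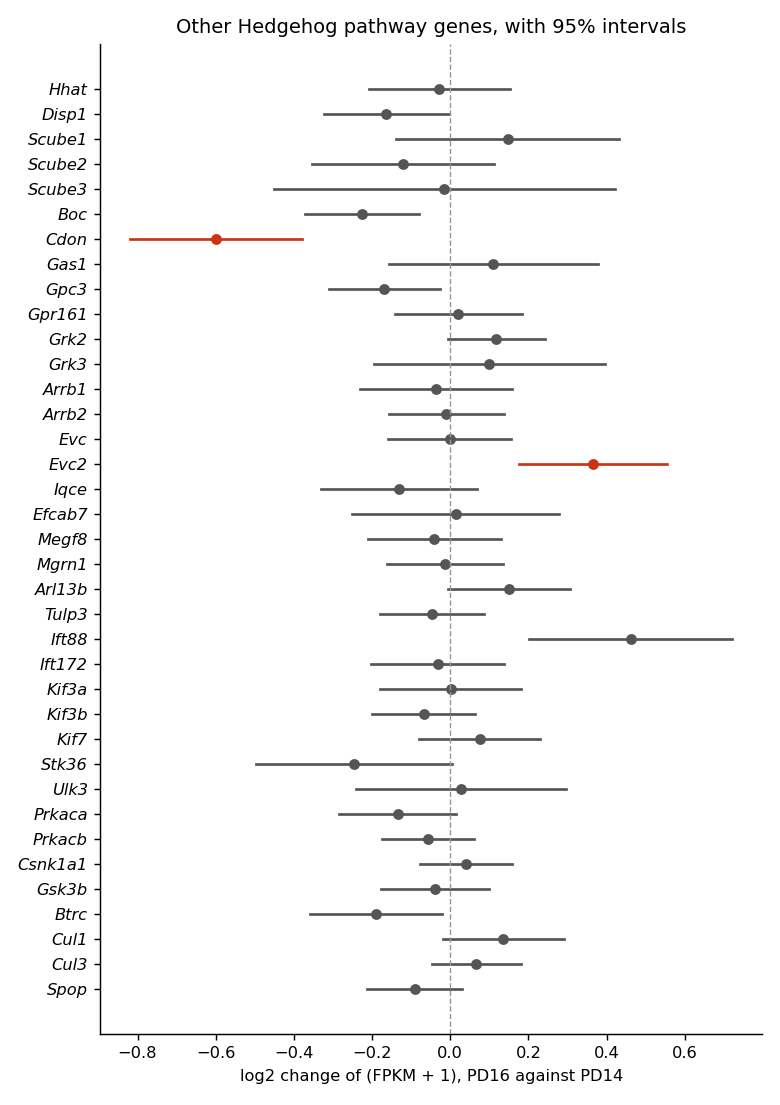
Change in log2(FPKM + 1) on PD16 against PD14 (x axis, log2 units) of the other pathway genes shown, ordered from ligand maturation through receptors and the cilium to Gli turnover, with dots for limma estimates, lines for 95% intervals and red for an adjusted p under 0.05. Cdon at -0.60 and Evc2 at 0.36 are red.

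Genes known as Hedgehog targets in other tissues were listed as 12, of which 10 passed the filter. On PD15 against PD14, 1 was higher (Mycn) and 1 lower (Foxl1), and on PD16 against PD14, 1 was higher (Mycn) and 1 lower (Sfrp1), beside 0.678% and 4.25% of all genes. Foxl1 passed the filter only through the days on which it was high, so its call is given as a value and not as support. On PD16 against PD15 limma called 0, where 0.729% of all genes were called. At an unadjusted p under 0.05 there were 3 of 10 on PD15 against PD14 and 4 of 10 on PD16 against PD14. On PD16 against PD15 there were 2 of 10, and the shares over all genes were 14.7%, 22.8% and 14.1%. Foxl1 is in each of these counts, and its place there is no support. Mycn, a transcription factor of growing cells, was at 16.0, 19.3 and 17.7 FPKM on PD14, at 29.5, 28.9 and 23.0 FPKM on PD15 and at 27.8, 26.0 and 27.9 FPKM on PD16. Every later library of Mycn was above every PD14 library, with changes of 0.59 (SE 0.10, adjusted p = 0.0410) and 0.60 (adjusted p = 0.0189). Over the alternatives the adjusted p of the former reached 0.141 and that of the latter 0.0689. The former call was lost in 12 of 17 alternatives and the latter in 4 of 17.

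Sfrp1, a secreted Wnt inhibitor, was at 39.5, 44.4 and 42.5 FPKM on PD14, at 34.7, 35.5 and 36.9 FPKM on PD15 and at 29.2, 34.8 and 33.9 FPKM on PD16, a change of -0.36 on PD16 against PD14 (adjusted p = 0.0333, reaching 0.107 over the alternatives). Foxl1, a forkhead factor of mesenchyme, was at 1.57, 1.68 and 1.42 FPKM on PD14 at 0.523, 0.683 and 0.695 FPKM on PD15 and at 0.962, 1.07 and 1.13 FPKM on PD16. From PD14 to PD15 it had a change of -0.65 (adjusted p = 0.0345, reaching 0.130 over the alternatives). Foxl1 was below 1 FPKM in all PD15 libraries. The Sfrp1 call was lost in 10 of 17 alternatives and the Foxl1 call in 11 of 16. The cyclins Ccnd1 and Ccnd2, which drive entry into the cell cycle, had differences of 0.07 and -0.09 on PD16 against PD14 (adjusted p = 0.756 and 0.579). Mycn and Sfrp1 thus moved in opposite directions on PD16, and the median change of the list was -0.10 on PD15 and -0.06 on PD16, both against PD14. Both medians include Foxl1, whose place in them is no support.

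Theca cells receive the signal, and their markers were read next. Of the 11 theca and interstitial markers tested, limma called 0 in each comparison, with 2, 3 and 2 at an unadjusted p under 0.05 on PD15 against PD14, PD16 against PD14 and PD16 against PD15, beside 14.7%, 22.8% and 14.1% of all genes. Their changes were positive in 3, 4 and 7 of the 11 and negative in 8, 7 and 4, with medians of -0.15, -0.05 and 0.04. In the same order, libraries of the days compared did not overlap for 4, 2 and 1 of the 11. Over all genes the shares without overlap were 20.6%, 28.5% and 19.6%. Cyp17a1, the androgen-forming enzyme of theca cells, was at 28.6, 26.4 and 31.8 FPKM on PD14, at 24.4, 19.9 and 20.5 FPKM on PD15 and at 41.9, 22.8 and 46.5 FPKM on PD16. PD15 was thus below PD14 in every library and PD16 widely spread, with changes from PD14 of -0.41 (adjusted p = 0.426) and 0.29 (adjusted p = 0.473).

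Cyp11a1, which cleaves the side chain of cholesterol in the first step of steroid synthesis, was at 50.8, 48.4 and 41.2 FPKM on PD14, at 20.6, 20.2 and 34.7 FPKM on PD15 and at 46.6, 16.8 and 35.0 FPKM on PD16. No PD15 library reached the PD14 range, but the change of -0.91 did not pass the test (adjusted p = 0.243). The means of Cyp11a1 were 46.8 FPKM on PD14, 25.2 FPKM on PD15 and 32.8 FPKM on PD16. By qRT-PCR of ovaries, the paper reports an increase of this transcript on PD15 and PD16, the opposite direction. The cause of that difference was not tested. Lhcgr, the receptor for luteinizing hormone, was at 13.3, 16.0 and 13.9 FPKM on PD14, at 7.77, 12.5 and 10.9 FPKM on PD15 and at 11.3, 7.85 and 10.2 FPKM on PD16. Every later library was below every PD14 library, with differences of -0.46 on PD15 and -0.52 on PD16, both against PD14 (adjusted p = 0.244 and 0.101). Insl3, a peptide hormone of theca cells, was at 2.40 to 6.27 FPKM with differences of -0.07 and -0.02. Star, which carries cholesterol into mitochondria, had positive differences of 0.21 and 0.38 (adjusted p = 0.732 and 0.372), and Tcf21, a mesenchymal transcription factor, of 0.09 and 0.12 (adjusted p = 0.648 and 0.384). The Schwann cell markers, added because peripheral nerve is another known source of Dhh, were low, with the defining factor Sox10 at most 0.519 FPKM in any library.

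The genes most like each ligand or target over the 9 libraries were ranked by Pearson's r of log2(FPKM + 1) across all genes tested, with Spearman's rho beside it. The 9 points share their library preparation and depth range, and the highest of 15495 values is high by selection, so these are descriptions. For Ihh they were Slc38a4 (r = 0.966, rho = 0.967), an amino acid transporter, Sox18 (r = 0.957, rho = 0.933), a transcription factor of endothelium, and Pphln1 (r = 0.932, rho = 0.85). For Dhh they were DHRSX, as the tables spell it (r = 0.919, rho = 0.817), Ccdc32 (r = 0.908, rho = 0.55) and Efhd2 (r = 0.907, rho = 0.583). For Ptch1 they were Gm26109 (r = 0.962, rho = 0.95), an unnamed transcript (r = 0.955, rho = 0.783) and the arginine transporter Slc7a1 (r = 0.948, rho = 0.95). For Gli1 they were Sdccag3 (r = 0.952, rho = 0.50), Prpf39 (r = 0.945, rho = 0.85) and Pde7b (r = 0.941, rho = 0.65), and for Hhip Gm14584 (r = 0.920, rho = 0.917), an unnamed transcript (r = 0.903, rho = 0.867) and Dnajb2 (r = 0.893, rho = 0.683). No Hedgehog gene was among the 3 nearest of these ligands and targets, and neighbours of Smo, Gli2, Gli3 and Sufu were not ranked.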

How the data were processed

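RNA of the ovaries was extracted with TRIzol, and Novogene prepared the libraries (NEBNext Ultra) and ran them on an Illumina HiSeq platform. The authors deposited 1 table of FPKM per library, and no further scaling was applied here. The submitters' processing notes name HISAT2 2.0.5 and the build mm10. The counter, annotation and strand setting are not given in the sources used here, so fragments of overlapping or antisense genes cannot be told apart.

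Positions and exon lengths were taken from GENCODE M21 (GRCm38), which held 50462 of the 52025 genes, and promoters from RefSeq. Depth was derived from the step of a single fragment in low FPKM, with 94.3% to 94.7% of values below 20 fragments whole within 0.02. For Dhh, Ptch1 and Sufu the fragment numbers are approximate, and counting errors cover counting only. No pair of libraries was identical.

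Genes with a mean above 1 FPKM on at least 1 day were tested on log2(FPKM + 1) by limma 3.58.1 in R 4.3.3, with an intensity trend and all 9 libraries in 1 model. P-values were two-sided and adjusted by the Benjamini-Hochberg method. The libraries are described as separate ovaries, and p-values measure only the spread between them. Alternatives were other pseudocounts, filters, scaling and variance models, the 2 days alone, a replicate block and each library left out. The members and lists were chosen with earlier results of these data known. Named were all 9 members, Shh, Boc, Cdon, Gas1, Cyp17a1, Cyp11a1, Lhcgr, Insl3, Ccnd1, Ccnd2, each called gene of the pathway, target and theca lists, and the 3 genes nearest to Gli1, Ptch1, Hhip, Dhh and Ihh. Other marker genes (Hsd3b1, Aldh1a1, Star, Tcf21, Hba-a1, Plin1, Sox10, Cnn1, Gdf9, Bmp15, Zp2, Nlrp5, Inha, Inhba, Amh and Tagln) were named after their values were seen. Some genes of the lists count in their totals but are not reported here by name. Python 3.11.15, pandas 2.3.3, NumPy 2.4.6 and Matplotlib 3.10.9 were used for tables and plots.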

Additional observations from a re-analysis of the deposited data

How the results depend on the processing

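Among the 9 Hedgehog genes, the count called on PD15 against PD14 was 1 and became 0 with no filter on low values, with a mean above 1 FPKM required on all days, with no intensity trend and with only the 2 days compared, and was 0 to 1 when 1 library was left out. In the F test among the days the count of 1 became 0 with no filter, with no intensity trend and with any library left out (0 to 0). The 12 alternatives that lost the Ihh call reduced the libraries, changed the genes tested or changed the variance model, and its direction was the same in all 17. On PD16 against PD14, the 2 other pathway genes became 0 with no filter, 1 with no intensity trend, 1 with only the 2 days and 0 to 2 with 1 library left out, and the 2 target genes became 0 with no filter, 3 with no intensity trend, 1 with only the 2 days and 0 to 2 with 1 library left out. Theca markers went from 0 to 1 without PD16 replicate 1 or 2. The cause of these differences was not tested.

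Signs reversed only in changes that were not called, and only when 1 library was left out (adjusted p at least 0.726). The ranges over the libraries left out were -0.24 to 0.049 for Dhh on PD16 against PD15, -0.12 to 0.10 for Ptch1 on PD15 and -0.0031 to 0.18 on PD16 against PD14, -0.016 to 0.025 for Smo on PD16 against PD14, -0.0068 to 0.033 for Gli1 on PD15 against PD14, -0.0014 to 0.13 for Gli2 on PD15 against PD14 and -0.034 to 0.11 on PD16 against PD15, -0.0065 to 0.12 for Gli3 on PD16 against PD14 and -0.058 to 0.067 on PD16 against PD15, -0.078 to 0.044 for Hhip and -0.048 to 0.047 for Sufu on PD16 against PD15.

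The replicate numbers did not pair the libraries. Correlations of deviations from the day means were -0.21 to 0.16 for the 9 pairs of libraries with the same number and -0.20 to 0.21 for the 18 others. With the number as a replicate block, Ihh on PD15 against PD14 had an adjusted p of 0.0239, and 1 other pathway gene was called on PD16 against PD14. Over all genes the block moved the calls from 105 to 24 on PD15, from 659 to 227 on PD16, both against PD14, and from 113 to 56 on PD16 against PD15. With 1 library left out these counts were 3 to 92, 92 to 660 and 14 to 125, and with no filter 29, 172 and 24.

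With 3 libraries a day, the 95% intervals of the uncalled Hedgehog genes reach 0.55 on the log2 scale for Dhh and 0.17 for Smo. Changes within these intervals are not excluded. Depth limits Gli3 most, with a counting error of up to 4.74%.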

Other observations

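Smooth muscle forms the outer theca and the vessel walls, and its markers were read because Hedgehog signalling is known to act on these cells. On PD16 against PD14, all 8 smooth muscle markers tested had a positive change, with a median of 0.22, 2 were at an unadjusted p under 0.05, and 1, Cnn1 (calponin), was called, beside 22.8% and 4.25% of all genes. Of these 8, Tagln passed the filter through PD16 alone, so its sign and its place in the median are no support. Cnn1 was at 7.32, 7.49 and 8.15 FPKM on PD14, at 11.8, 8.20 and 8.64 FPKM on PD15 and at 10.9, 14.1 and 11.8 FPKM on PD16. No PD14 library of Cnn1 reached a later one, and the change on PD16 against PD14 was 0.61 (adjusted p = 0.0348). On PD15 against PD14, 4 of the 8 were positive, with a median of 0.01. Limma called 0 of them, and 0 were at an unadjusted p under 0.05, beside 0.678% and 14.7% of all genes.

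Gdf9, the oocyte factor known to act on granulosa cells, had day means of 242, 260 and 212 FPKM and did not pass the test on PD15 or PD16 against PD14 (changes of 0.11 and -0.18, adjusted p = 0.670 and 0.351). Of the 12 oocyte markers, 9 had a negative change on PD16 against PD14, with a median of -0.22, 7 were at an unadjusted p under 0.05 and 1 was called, beside 22.8% and 4.25% of all genes. The gene called was Bmp15, the partner of Gdf9, at 0.39 higher (adjusted p = 0.0331). On PD15 against PD14, 9 of the 12 were positive with a median of 0.20, and Nlrp5 was called higher. On PD16 against PD15 all 12 were negative with a median of -0.36, and Zp2 and Nlrp5 were called lower, beside 0.678% and 0.729% of all genes called in these comparisons.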
